A study of Mus musculus with 11 samples.

Results

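Transcripts of 10 primary granule genes of myeloid progenitors were followed in mouse leukaemia cells before and after deletion of 3 histone demethylase genes. The 10 genes are Mpo, Elane, Prtn3, Ctsg, Ms4a3, Fcnb, Cst7, Nkg7, Plac8 and Igsf6, chosen by name as genes of azurophil granules and promyelocytes and found through the RefSeq accessions of their array probes. The choice was made with earlier results of these data known, so their ranks and counts are not those of a set picked independently. They had 12 probes. The array held 20972 genes with a symbol, and all 10 were among the 25079 genes or unnamed features tested. The cells were granulocyte-macrophage progenitors (GMP) transformed by the MLL-AF9 fusion oncogene, in 4 lines from leukaemic mice of C57BL/6 background. In every line the Kdm4a, Kdm4b and Kdm4c alleles were floxed (these genes are called Jmjd2a, Jmjd2b and Jmjd2c in the genotype), and CreERT2, a tamoxifen-activated recombinase, sat at the Rosa26 locus. The 0 h controls have the same genotype. All were cultured with 20% FBS and 10 ng/ml IL-3. RNA was taken at 0 h without 4-hydroxytamoxifen (4-OHT, 4 arrays), at 48 h with 500 nM 4-OHT (4 arrays) and at 96 h with 500 nM (3 arrays). Cells given 4-OHT without floxed alleles were not analysed here, so loss of the genes, exposure to 4-OHT and recombinase, and time in culture cannot be told apart.

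Primary granules, also called azurophil granules, are the first granules that a developing neutrophil makes, and their cargo is transcribed mainly at the promyelocyte stage. They hold myeloperoxidase and a group of neutral serine proteases, which kill and digest engulfed microbes. The transcription factors PU.1, C/EBP, RUNX1 and MYB are known regulators of this programme in normal myelopoiesis, and granules formed later hold other proteins such as lactoferrin and cathelicidin.

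The promoters of 4 cargo genes are shown first, because these genes encode the granule enzymes and their differences at 48 h with 4-OHT ranged from 20.2-fold for Mpo to none called for Ctsg. Each line gives the 250 bases before the RefSeq transcription start on the gene's own strand (GRCm38.p6), 5′ to 3′. Capitals mark matches to GAGGAA (the core of PU.1 sites), AACNGNC (MYB), TGNGGT (RUNX) and TTGCNNAA (C/EBP), each searched on both strands. The windows are Mpo at chr11:87793534-87793783 (plus strand), Elane at chr10:79886062-79886311 (plus), Prtn3 at chr10:79879417-79879666 (plus) and Ctsg at chr14:56102575-56102824 (minus).
Mpo: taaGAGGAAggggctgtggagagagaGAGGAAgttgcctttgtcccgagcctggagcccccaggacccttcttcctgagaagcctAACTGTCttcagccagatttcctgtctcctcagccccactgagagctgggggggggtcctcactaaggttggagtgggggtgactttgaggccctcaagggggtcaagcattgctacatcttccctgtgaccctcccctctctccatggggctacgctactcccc
Elane: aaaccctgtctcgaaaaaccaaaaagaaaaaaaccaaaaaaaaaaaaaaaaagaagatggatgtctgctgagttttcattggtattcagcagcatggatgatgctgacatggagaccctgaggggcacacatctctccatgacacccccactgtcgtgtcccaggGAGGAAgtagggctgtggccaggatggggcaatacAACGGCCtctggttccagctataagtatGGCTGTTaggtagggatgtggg
Prtn3: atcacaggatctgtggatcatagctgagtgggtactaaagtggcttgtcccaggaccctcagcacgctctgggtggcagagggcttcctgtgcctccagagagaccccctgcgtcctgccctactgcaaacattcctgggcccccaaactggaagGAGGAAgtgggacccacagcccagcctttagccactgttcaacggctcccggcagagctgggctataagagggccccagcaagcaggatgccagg
Ctsg: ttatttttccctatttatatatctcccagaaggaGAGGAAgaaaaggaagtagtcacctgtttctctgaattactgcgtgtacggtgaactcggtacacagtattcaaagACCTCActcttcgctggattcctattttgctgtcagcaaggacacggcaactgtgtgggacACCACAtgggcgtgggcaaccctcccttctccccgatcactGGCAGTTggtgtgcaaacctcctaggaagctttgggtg

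The search itself covered 300 bases, which end 50 bases after the start, in 32851 promoters of the RefSeq table. All 10 genes matched that table by symbol, with 11 promoters because Plac8 has 2. GAGGAA was found in 7 of the 11, against 28.3% of all promoters. It lay 85 bases before the start of Elane and 95 bases before that of Prtn3, followed in both by the letters gt. Mpo had it 247 and 224 bases before the start, and Ctsg 216 bases before. AACNGNC was found in 8 of the 11 (32.8% of all), including Mpo, Elane and Ctsg. TGNGGT was in 5 of the 11 (45.8%), and TTGCNNAA in 4 of the 11 (10.8%), namely those of Cst7, Fcnb, Ms4a3 and 1 of the Plac8 promoters. The TATA box letters TATAAA on the gene strand were in 0 of the 11 and in 8.32% of all promoters. Only that exact spelling was searched, and the Elane and Prtn3 windows above hold TATAAG, so the count does not show that TATA boxes are absent. No match overlapped another in these promoters, and a match shows only that the letters are present.

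Values below are scaled log2 signals, the log2 of an array's processed signal for a probe minus the log2 of that array's 75th percentile, so that 0 is the 75th percentile. Each value belongs to 1 probe, and levels of different genes are not compared. Arrays are named by the number, 1 to 4, in their deposited file names. At 0 h and 48 h this is also the titled replicate number, while the 96 h arrays with numbers 1, 3 and 4 carry the titles of replicates 1, 2 and 3. Same-numbered arrays deviated together from their group means in all 10 pairs, and a second fit therefore had the number as a block. Unless the block is named, differences, standard errors (SE) and Benjamini-Hochberg adjusted p values come from limma with group means over all 11 arrays, and genes with an adjusted p below 0.05 count as called. The signal comes from bulk RNA, so more cells of a type and more RNA per cell cannot be told apart.

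By the brighter or only probe of each, the floxed genes were lower in every 4-OHT array than in every 0 h array. The brighter Kdm4a probe was left at 33.1% of its 0 h level at 48 h and 43.6% at 96 h, that of Kdm4b at 10.2% and 10.5%, and that of Kdm4c at 3.24% and 4.13% (limma adjusted p 0.00443 or lower in all 6 tests). At 48 h the Kdm4c probe was well above background on 2 of 4 arrays, so its 3.24% is not an exact level. A dim Kdm4a probe was not called lower at 48 h (adjusted p = 0.593), and the labels do not say which parts of the genes were deleted. The GMP identity could be checked on the surface marker genes Cd34, Kit, Flt3, Fcgr3, Fcgr2b, Cd48, Cd33, Clec12a and Ly6c1, each well above background on all 11 arrays. The 0 h and 48 h arrays shared 1 slide and scan, and the 96 h arrays had another, so the 96 h group and its slide cannot be told apart. Probes well above background numbered 27557 to 32678 per array on the first slide and 29743 to 42054 on the second.

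The series asks which genes are targets of the 3 demethylases. At 48 h, the earlier time, 4 of the 10 primary granule genes rose (Mpo, Ms4a3, Plac8 and Igsf6) and 0 fell. The other 6 also had higher means under this scaling, under which the median gene was higher too. Of these 6, Fcnb was below background at both times, and the sign of Ctsg changed under other scalings. The share of all genes with a higher mean was not counted. Mpo rose 20.2-fold, Ms4a3 3.35-fold, Igsf6 2.40-fold and Plac8 1.90-fold. Over all genes tested, 18.6% were called in either direction, 10.5% higher and 8.03% lower. The groups did not overlap for 4 of the 10, Fcnb below background included, all higher at 48 h, as for 14.1% of all genes. With the number as a block 8 of the 10 were called higher, all but Ctsg and Fcnb, where 12.2% of all genes were. The members' median log2 difference was 0.92, beside 0.12 over all genes tested.

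All 10 genes were higher at 48 h than at 0 h within each of the 4 numbers, a pattern that 27.2% of all genes had. Fcnb was on no array at 0 h or 48 h well above background, so its order within numbers carries no measured level. The direction of Ctsg depended on scaling (below).

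**Figure D1:**
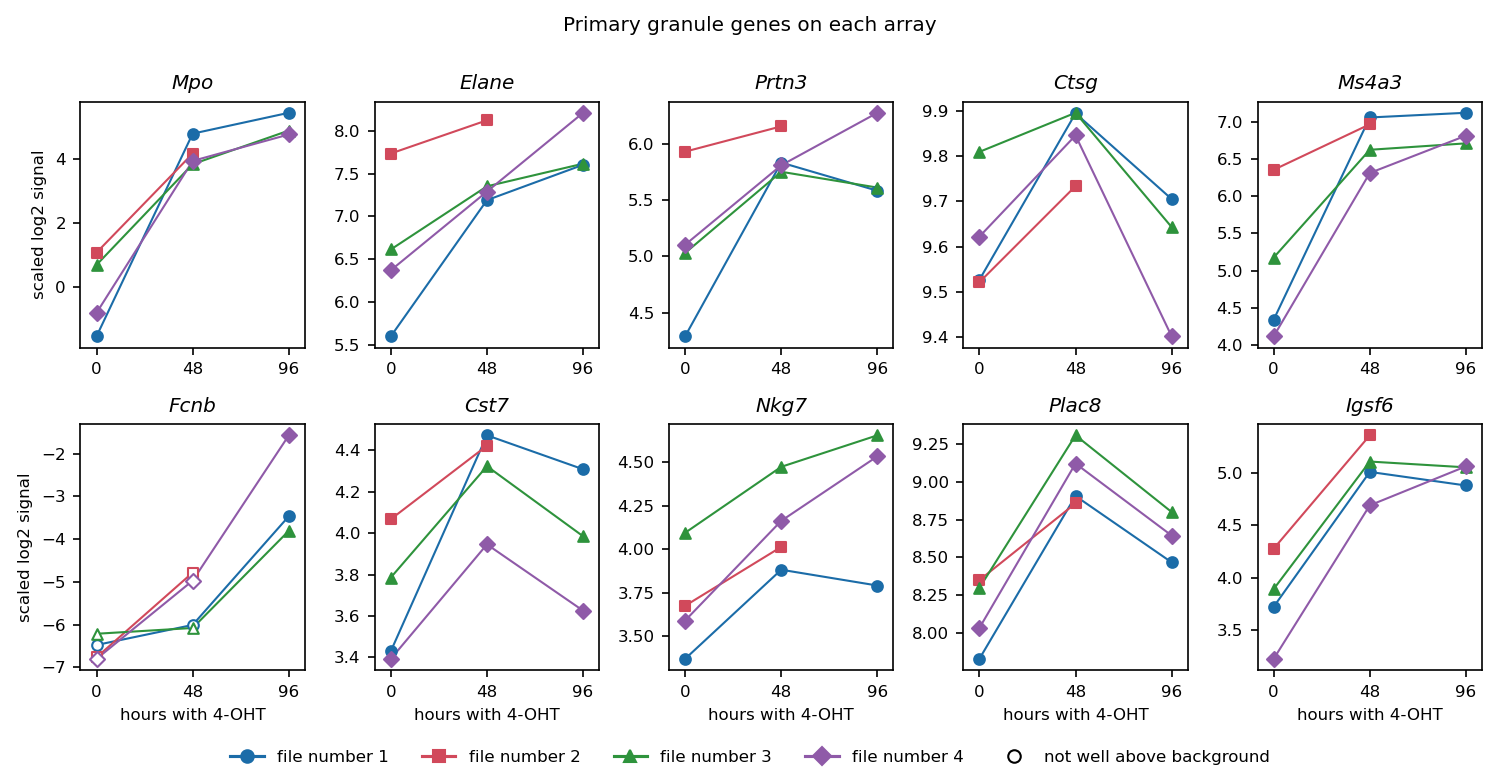
Scaled log2 signal (vertical axes, a different range in each panel) of the 10 genes at 0, 48 and 96 h with 4-OHT (horizontal axes); points are single arrays, lines join arrays with the same file number, and open points were not well above background. Mpo lies between -1.55 and 1.07 at 0 h and between 3.84 and 5.44 afterwards, while Ctsg stays between 9.40 and 9.90.

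Mpo encodes myeloperoxidase, the haem enzyme that makes hypochlorous acid inside the phagosome. Its probe (A_55_P1995537) read -1.55, 1.07, 0.69 and -0.81 at 0 h for numbers 1 to 4, then 4.79, 4.17, 3.84 and 3.94 at 48 h, and 5.44, 4.89 and 4.77 at 96 h for numbers 1, 3 and 4. Every array after 4-OHT was above every 0 h array, and numbers 1 and 4 started lowest. The log2 difference was 4.33 (SE 0.52, limma adjusted p = 0.00199) at 48 h, rank 1 of all 25079 features tested from the highest. At 96 h it was 5.18 (SE 0.56, adjusted p = 0.00264), or 36.3-fold, and rank 4. Within numbers the rise at 48 h was 80.9-fold in number 1, 26.9-fold in number 4, 8.87-fold in number 3 and 8.56-fold in number 2, so the numbers differed widely in size but not in direction. Between 48 h and 96 h Mpo was higher in 3 of 3 numbers, by 0.65 to 1.05, and the difference of 0.85 did not pass the test (adjusted p = 0.358).

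Of the neutral serine proteases, Elane and Prtn3 were called with the block or without 0 h replicate 2, and Ctsg in neither. At each time Elane and Prtn3 were called in only 1 of 11 fits with a single array left out. The limma adjusted p in these fits reached 0.278 for Elane (48 h) and 0.418 for Prtn3 (96 h). Elane encodes neutrophil elastase, mutated in severe congenital and cyclic neutropenia. Its probe (A_66_P137219) read 5.60, 7.73, 6.61 and 6.37 at 0 h, then 7.19, 8.12, 7.35 and 7.29 at 48 h, and 7.60, 7.61 and 8.21 at 96 h. Number 2 at 0 h was above 3 of the 4 arrays at 48 h, so the groups overlapped, although each number was higher at 48 h than at 0 h. The difference was 0.91 (SE 0.40) at 48 h and 1.23 (SE 0.43) at 96 h, with limma adjusted p = 0.135 and 0.0946. With the block Elane was called at both times, by 0.91 (adjusted p = 0.029) and 1.53 (adjusted p = 0.0156). Without 0 h replicate 2 it was called in both comparisons with group means as well (1.29, adjusted p = 0.018, and 1.62, adjusted p = 0.0171).

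Prtn3 encodes proteinase 3, an autoantigen in granulomatosis with polyangiitis. Its probe (A_51_P209818) read 4.29, 5.93, 5.03 and 5.10 at 0 h, then 5.83, 6.16, 5.75 and 5.81 at 48 h, and 5.58, 5.61 and 6.28 at 96 h. As with Elane, number 1 was lowest and number 2 highest at 0 h, and the groups overlapped through number 2. The differences were 0.80 (SE 0.30, limma adjusted p = 0.0909) at 48 h and 0.74 (SE 0.33, adjusted p = 0.17) at 96 h. The block called both (adjusted p = 0.0389 and 0.0457), as did the fit without 0 h replicate 2 (adjusted p = 0.0147 and 0.0343).

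Ctsg encodes cathepsin G, a chymotrypsin-like protease of the same granules. It read 9.53, 9.52, 9.81 and 9.62 at 0 h, then 9.89, 9.73, 9.90 and 9.85 at 48 h, and 9.70, 9.64 and 9.40 at 96 h (A_51_P416546). All 11 values lay within a narrow band, and the groups overlapped with 0 h at both times. The difference was 0.22 at 48 h (95% interval -0.0085 to 0.45, limma adjusted p = 0.157) and -0.04 at 96 h (-0.29 to 0.21, adjusted p = 0.858). Its sign was not stable: at 48 h it was -0.034 with quantile normalization and -0.016 in the authors' deposited table, where the 96 h value was 0.35. No setting run called Ctsg, and its spots were bright (processed signal 99748 to 245270) without a saturation flag.

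Ms4a3 encodes a membrane protein of the MS4A family that marks granulocyte-monocyte progenitors and regulates the cell cycle of haematopoietic cells. Its probe (A_51_P364210) read 4.34, 6.35, 5.18 and 4.12 at 0 h, then 7.06, 6.97, 6.62 and 6.31 at 48 h, and 7.12, 6.71 and 6.81 at 96 h. Number 2 at 0 h, at 6.35, lay above number 4 at 48 h, at 6.31, and all 96 h arrays were above all 0 h arrays. Ms4a3 rose by 1.74 (SE 0.42, limma adjusted p = 0.0203) at 48 h and by 1.89 (SE 0.46, adjusted p = 0.033) at 96 h. Single arrays decided these calls. Dropping 0 h replicate 1, 0 h replicate 4 or 48 h replicate 1 raised the 48 h adjusted p to 0.0511 to 0.0546. Dropping 0 h replicate 1, 3 or 4, or any of the 96 h arrays, raised that at 96 h to 0.0651 to 0.094, while with the block both were called (0.0167 and 0.0184). The 96 h adjusted p was also 0.0853 with only those 2 groups in the fit, 0.0621 without the dim-probe filter and 0.0589 with the title number as a block.

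Igsf6 encodes an immunoglobulin superfamily membrane protein of myeloid cells. Its probe (A_51_P258372) read 3.72, 4.28, 3.89 and 3.22 at 0 h, then 5.01, 5.36, 5.11 and 4.69 at 48 h, and 4.88, 5.06 and 5.06 at 96 h. No array after 4-OHT overlapped the 0 h group, and within numbers the rise at 48 h lay between 1.08 and 1.47, the most even of the genes called. Igsf6 rose by 1.27 (SE 0.21, limma adjusted p = 0.0057) at 48 h and by 1.22 (SE 0.23, adjusted p = 0.0157) at 96 h. The 96 h call did not hold when 96 h replicate 2 (adjusted p = 0.0547) or 3 (0.0504) was left out, with only those 2 groups in the fit (0.0523) and under median scaling (0.0682).

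Plac8 encodes a small cysteine-rich protein of myeloid and other cells. Its brighter probe (A_55_P1962305) read 7.82, 8.35, 8.30 and 8.03 at 0 h, then 8.91, 8.86, 9.31 and 9.12 at 48 h, and 8.47, 8.80 and 8.64 at 96 h. The 48 h arrays stood above all the others, and the 96 h arrays lay between the groups. Plac8 rose by 0.92 (SE 0.15, limma adjusted p = 0.005) at 48 h, and the second probe (A_55_P1962304) gave 0.93 (adjusted p = 0.0165, over probes). At 96 h the difference from 0 h was 0.51 (adjusted p = 0.0725, with the block 0.043), and that from 48 h was -0.41 (adjusted p = 0.13). The 96 h difference from 0 h was called in the authors' deposited table (0.75, limma adjusted p = 0.0059) and with quantile normalization (0.67, adjusted p = 0.0176). It was called in 0 of 11 fits with a single array left out. Under median scaling the 48 h difference was 0.70 (adjusted p = 0.0856).

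Cst7 and Nkg7 are shared with cytotoxic lymphocytes. Cst7 encodes cystatin F, which inhibits the cathepsins that activate granule proteases. It read 3.43, 4.07, 3.79 and 3.39 at 0 h, then 4.47, 4.42, 4.32 and 3.95 at 48 h, and 4.31, 3.98 and 3.63 at 96 h (A_51_P137419). Number 2 at 0 h lay above number 4 at 48 h, and the 96 h arrays overlapped both groups. The difference was 0.62 (SE 0.20, limma adjusted p = 0.0545, with the block 0.0255) at 48 h and 0.30 (adjusted p = 0.38, with the block 0.131) at 96 h, where median scaling turned it to -0.08. Without 0 h replicate 2, 96 h replicate 1 or 96 h replicate 3 the 48 h difference was called (adjusted p 0.0247 to 0.0488). So it was in the authors' deposited table (0.60, limma adjusted p = 0.0264), with quantile normalization (0.64, 0.0491) and with array weights (0.67, 0.0326). Under median scaling (0.40, limma adjusted p = 0.254) and without the dim-probe filter (0.62, 0.103) it was not.

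Nkg7 encodes a membrane protein of cytotoxic granules. Its brighter probe (A_55_P2009582) read 3.37, 3.67, 4.09 and 3.59 at 0 h, then 3.88, 4.01, 4.47 and 4.16 at 48 h, and 3.79, 4.66 and 4.54 at 96 h. The groups overlapped, and number 3 was highest at all 3 times. The difference was 0.45 (SE 0.22, limma adjusted p = 0.178, with the block 0.031) at 48 h and 0.65 (SE 0.24, adjusted p = 0.112, with the block 0.0245) at 96 h. The second probe (A_51_P499195) gave 0.49 and 0.92 in the same direction. Of 15 markers of natural killer and cytotoxic T cells, 8 were well above background on all arrays (Gzma, Prf1, Cd3e, Cd3d, Cd8a, Tbx21, Ccl5 and Lck). Of the natural killer receptors on that list, Klrd1 and Klrk1 were well above background on no array, and Ncr1 and Klrb1c on none at 0 h and 48 h and on 1 of 3 at 96 h.

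Fcnb encodes ficolin B, a lectin of the innate immune system. Its probe (A_52_P676359) read -6.48, -6.76, -6.21 and -6.80 at 0 h, -6.01, -4.78, -6.08 and -4.97 at 48 h, and -3.46, -3.80 and -1.57 at 96 h. Fcnb was tested only because of its 96 h arrays, which alone met the filter of 3 arrays well above background, so a tested Fcnb had to differ there. None of the 8 readings at 0 h and 48 h was well above background, so no fold is given between them, and it was well above background on 3 of 3 arrays at 96 h. Against the lowest signal that counts as above background, Fcnb at 96 h was at least 3.04-fold higher than at 0 h and at least 2.35-fold higher than at 48 h. These bounds were not tested. Limma on the readings themselves called both differences (adjusted p = 0.00712 and 0.0153). These calls rest on readings near background on another slide, and both were lost with normexp background correction (adjusted p = 0.089 and 0.165) and in the authors' deposited table (0.089 and 0.164).

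**Figure D2:**
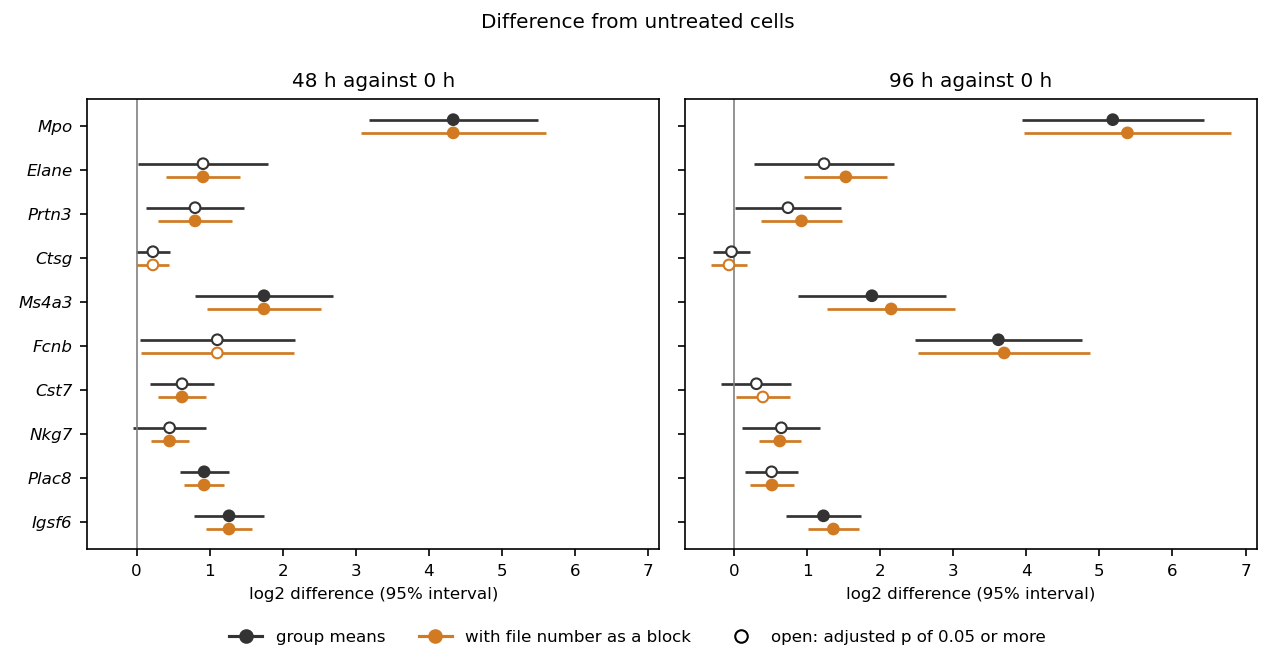
Log2 difference from 0 h (horizontal axis) with its 95% interval for each gene at 48 h (left) and 96 h (right), from limma with group means (dark) and with the file number as a block (orange); filled points have an adjusted p under 0.05. Filled dark points number 4 in each panel and filled orange points 8; for Fcnb, below background at 0 h, the fitted value is not a measured fold.

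At 96 h against 0 h, 4 of the 10 genes were called higher (Mpo, Ms4a3, Igsf6 and Fcnb, the last tested only through its 96 h arrays) and 0 lower. Higher means were seen for 9, Ctsg being the exception, and the share of all genes with a higher mean was not counted. Over all genes, 9.56% were called in either direction, 6.18% higher and 3.38% lower. The groups did not overlap for 5 of the 10, all higher at 96 h, as for 16.4% of all genes. With the block 8 were called higher, all but Ctsg and Cst7, beside 8.56% of all genes. With probes required to be above background on all arrays, which removes Fcnb, 3 were called. The median difference, Fcnb included, was 0.98, beside 0.11 over all genes. Of the 10, 9 were higher in 3 of 3 numbers, as were 34.5% of all genes, and Ctsg was higher in 1 of 3. The count was 3 without 96 h replicate 1, and 2 without replicate 2 or without replicate 3, while that over all genes went from 2397 to 932, 702 and 896.

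At 96 h against 48 h, 1 of the 10 was called higher (Fcnb, tested only through its 96 h arrays) and 0 lower, beside 5.17% and 5.95% of all genes (11.1% in either direction). The block gave the same 1 gene, beside 5.89% of all genes called higher. The groups did not overlap for 1 gene that was higher (Fcnb, 14.2% of all genes) and 2 that were lower (Ctsg and Plac8, 13.6%). At an unadjusted p under 0.05, limma gave 1 higher and 2 lower, Ctsg and Plac8. Mpo, Elane, Ms4a3 and Fcnb were higher in 3 of 3 numbers, as were 28.9% of all genes, and Ctsg, Cst7 and Plac8 were lower in 3 of 3, as were 27% of all genes. The comparisons with 0 h share the 0 h arrays, so their counts are not independent of each other.

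The choice of scaling bears on these directions. Scaling each array to its median in place of its 75th percentile moved the median difference of all genes from 0.12 to -0.10 at 48 h and from 0.11 to -0.28 at 96 h. It turned the counts over all genes from 2644 higher and 2013 lower to 424 and 1931 at 48 h, from 1549 and 848 to 231 and 2328 at 96 h, and from 1296 and 1493 to 158 and 762 at 96 h against 48 h. Under it 3 of the 10 genes were still called higher at 48 h (Mpo, Ms4a3 and Igsf6) and 3 at 96 h (Mpo, Ms4a3 and Fcnb, the last tested only through its 96 h arrays). Mpo was called at 48 h and 96 h in each setting run, with log2 differences of 3.87 to 4.74 and 4.72 to 5.59 when single arrays were left out.

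The spread between arrays at 0 h and 48 h differed for several of these genes. The SD over arrays was 1.24 at 0 h and 0.43 at 48 h for Mpo, 1.01 and 0.34 for Ms4a3, 0.88 and 0.43 for Elane, and 0.67 and 0.18 for Prtn3. It was smaller at 48 h than at 0 h for 9 of the 10 genes, Fcnb being the exception, and for 54.7% of all genes. With numbers 1, 3 and 4 alone it was smaller for 8 of the 10 and for 51.4% of all genes, and the 0 h SD was then 0.53 for Elane and 0.56 for Ms4a3. At 96 h it was smaller than at 0 h for 6 of the 10, or 60% of them, and for 57% of all genes. At 0 h number 2 was highest of the 4 for Mpo, Elane, Prtn3, Ms4a3, Cst7, Plac8 and Igsf6, and it had the smallest change at 48 h for each of these 7, a change from which the 0 h value is subtracted. No test of this spread was made. Number 2 has no 96 h array, and with numbers 1, 3 and 4 alone 6 of the 10 genes were called higher at 48 h and 6 at 96 h (8 and 8 with the block), a setting added after the data were seen. Of the 25079 features tested, 2370 and 1673 were then called higher (2768 and 2251 with the block). The members' 96 h counts include Fcnb, tested only through its 96 h arrays.

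**Figure D3:**
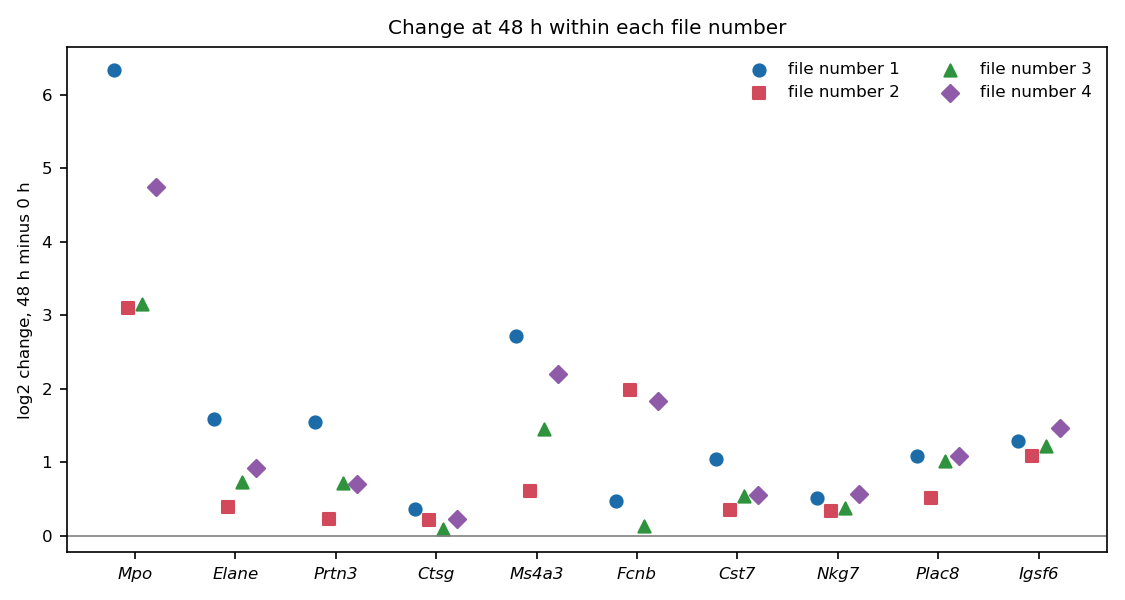
Log2 change from 0 h to 48 h (vertical axis) for each gene, 1 point per file number. All points lie above 0; Mpo spans 3.10 to 6.34 and Igsf6 1.08 to 1.47, and number 1 is highest for Mpo, Elane, Prtn3, Ctsg, Ms4a3 and Cst7.

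Members resembled each other to unequal degrees across the 11 arrays, which share lines and slides. The Pearson r of a gene with the mean of the other 9, each centred, was 0.955 for Mpo, 0.933 for Ms4a3, 0.932 for Igsf6, 0.862 for Elane and 0.823 for Prtn3. It was 0.622 to 0.752 for Plac8, Nkg7, Cst7 and Fcnb, and 0.161 for Ctsg. Genes were centred but not scaled, so Mpo and Fcnb, with the widest ranges, weigh most in these means and in that of all 10. Fcnb was well above background on no array at 0 h or 48 h, so its part in them rests partly on unmeasured levels. Of 14983 other genes with a symbol, those most like the mean of the 10 over the 11 arrays included St8sia5 (r = 0.986), Smtn (0.977), Rpa1 (0.976), Zfp41 (0.974), Fkbp1b (0.969), Zgrf1 (0.967) and Ccdc167 (0.966). They are given by that order alone.

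Further cargo of primary granules was read from a list of 14 genes. Of these, 1 rose at 48 h and 4 at 96 h, beside 10.5% and 6.18% of all genes, and 0 fell at either time (median 0.24 and 0.38), while at an unadjusted p under 0.05 limma gave 0 and 1 lower. Arsb, the lysosomal arylsulfatase B, rose at both times (0.85, limma adjusted p = 0.0183, and 1.36, adjusted p = 0.0103). Prss57, neutrophil serine protease 4, rose by 1.07 at 96 h (adjusted p = 0.0306), as did the lysosomal hydrolase genes Fuca1 (0.55, adjusted p = 0.0284) and Gusb (0.51, adjusted p = 0.0144). With the block 1 and 6 rose, beside 12.2% and 8.56% of all genes. The lysozyme genes Lyz1 and Lyz2 were called at 96 h with the block alone (adjusted p = 0.0112 and 0.0212, beside 0.0892 and 0.229 without it). Under median scaling 0 of the list were called at 48 h, and 1 rose and 1 fell at 96 h.

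Genes for processing, packaging and inhibiting granule proteins went both ways. Of 15, 2 rose and 5 fell at 48 h, beside 10.5% and 8.03% of all genes, and 1 rose and 1 fell at 96 h, beside 6.18% and 3.38% (median -0.20 and 0.11). With the block 3 rose and 5 fell at 48 h, and 2 rose and 1 fell at 96 h (9.23% and 5.45% of all genes were lower). Calr, the chaperone calreticulin that binds newly made myeloperoxidase, rose by 1.02 (limma adjusted p = 0.00557) and 0.69 (adjusted p = 0.0438). Srgn, serglycin, the proteoglycan that retains granule proteases, rose by 0.44 at 48 h (adjusted p = 0.00818). Hax1, whose loss causes congenital neutropenia, fell by 0.88 (adjusted p = 0.00583) and 0.76 (adjusted p = 0.023). Ctsc, cathepsin C, which activates elastase, proteinase 3 and cathepsin G, gave -0.27 and -0.25 and was not called (adjusted p = 0.363 and 0.466). Under median scaling 0 rose and 3 fell at each time.

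Of 14 transcription factors of the promyelocyte programme tested, 0 rose and 2 fell at 48 h, beside 10.5% and 8.03% of all genes, and 1 rose and 2 fell at 96 h, beside 6.18% and 3.38% (median 0.02 and -0.07). Cebpb fell by 0.42 (limma adjusted p = 0.0201) and 0.48 (adjusted p = 0.0283), Rara by 0.50 (adjusted p = 0.0428) and 0.63 (adjusted p = 0.0405), and Cux1 rose by 0.59 at 96 h (adjusted p = 0.0168). The Rara calls were lost with the block (0.0686 and 0.0667). Spi1, which encodes PU.1, gave -0.02 and 0.0077, Cebpa -0.32 and -0.31, Runx1 0.29 and -0.18, Myb 0.06 and 0.15, and Gfi1 -0.22 and 0.01, none of them called (adjusted p 0.0594 to 0.984). Cebpe, the factor of later granules, gave 0.43 at 48 h (adjusted p = 0.0682, with the block 0.0248). Lef1 was well above background on no array.

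Markers of other cells moved beside the primary granule genes. Of 20 secondary granule and mature neutrophil markers tested, 5 rose at 48 h and 7 at 96 h, beside 10.5% and 6.18% of all genes, and 0 fell (median 0.70 and 1.73), with 1 and 0 lower at an unadjusted p under 0.05. With the block 8 rose at 48 h and 15 at 96 h, beside 12.2% and 8.56%. Under median scaling 2 and 9 rose and 0 fell. The lactoferrin gene Ltf rose by 6.82 (limma adjusted p = 9.98e-04), the cathelicidin gene Camp by 5.70 (adjusted p = 0.0024), Retnlg by 4.45 (adjusted p = 0.0121) and S100a8 by 3.11 (adjusted p = 0.0344) at 96 h. Of these 4, Camp was the one called at 48 h (2.50, adjusted p = 0.0159). The summed level of the list, in multiples of the array's 75th percentile, was 214 to 787 at 0 h, 374 to 826 at 48 h and 993 to 1732 at 96 h. Such sums are read over time within a list and not between lists. The part of neutrophil-marker RNA in the primary granule results was not tested.

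The remaining marker lists are read beside 10.5% higher and 8.03% lower of all genes at 48 h, and 6.18% and 3.38% at 96 h. Their block counts are read beside 12.2% and 9.23% at 48 h, and 8.56% and 5.45% at 96 h. Median scaling left 0 of the eosinophil and mast cell lists higher at either time, where it called 424 and 231 of all genes higher. GMP surface markers gave 0 calls at 48 h (limma, 1 higher and 1 lower at an unadjusted p under 0.05) and 1 rise at 96 h, Clec12a (1.39, adjusted p = 0.0105). Of the 14 tested markers of monocytes and macrophages, 1 was called higher and 1 lower at 48 h, Cd300e (0.82, adjusted p = 0.0193) and Fcgr1 (-3.71, adjusted p = 0.00736), and 0 were called at 96 h (2 higher and 1 lower unadjusted, by limma). Fcgr1 was well above background on only 1 array at 48 h, so the size of its fall is not a measured one. With the block 4 of the 14 markers were higher and 1 lower at 48 h, and 5 higher and 0 lower at 96 h. Their summed level was 24.8 to 49.8, 31.7 to 43.3 and 23.2 to 36.0 at the 3 times. Of 7 eosinophil markers, 1 rose at 48 h and 2 at 96 h, Prg3 (2.41, adjusted p = 0.0471) and Epx, and with the block 4 were higher at each time. Epx, also in both block counts, was well above background on no array at 0 h and was tested only through arrays after 4-OHT. The sum of the eosinophil list reached at most 6.40, 17.6 and 28.1 on any array of the 3 times. Of 8 mast cell and basophil markers, Mcpt8 (1.02, adjusted p = 0.0175) and Tpsb2 (0.52, adjusted p = 0.00923) rose at 48 h and Gata2 fell by 0.80 at 96 h (adjusted p = 0.031). With the block 3 were higher and 1 lower at 48 h, and 0 higher and 2 lower at 96 h.

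Lymphoid, erythroid and non-blood markers were also read. Of 10 natural killer and T cell markers tested, Cd3d rose (1.07, limma adjusted p = 0.00179, and 1.55, adjusted p = 9.98e-04) and Lck fell by 1.28 (adjusted p = 0.00667) and 0.89 (adjusted p = 0.0474), with Cd3e lower at 96 h (-0.53, adjusted p = 0.04, with the block 0.0718). The summed level of this list was 16.5 to 21.9 at 0 h, 13.4 to 16.4 at 48 h and 10.3 to 15.2 at 96 h, and its part in the Cst7 and Nkg7 values was not tested. Of 5 B cell markers, 0 were called by limma (1 and 2 higher at an unadjusted p under 0.05 at 48 h and 96 h, and 1 and 2 with the block). Of 10 erythroid and megakaryocyte markers, Epor (0.66, adjusted p = 0.00861, and 0.87, adjusted p = 0.00973) and Gp9 (1.07, adjusted p = 0.017, and 1.43, adjusted p = 0.0155) rose at both times. Of 10 stromal, endothelial and epithelial markers, Lepr (0.61, adjusted p = 0.0206) and Kdr (0.56, adjusted p = 0.022) rose at 48 h, and with the block 4 were higher and 1 lower at 48 h and 2 higher and 1 lower at 96 h. Krt8, well above background on no array at 0 h or 48 h, was tested only through its 96 h arrays, where it was at least 1.67-fold higher than at 0 h. That bound was not tested, and limma on the readings themselves called the difference (adjusted p = 0.00645). Under median scaling the erythroid list had 0 rises at 48 h and 1 at 96 h, and the non-blood list 0 calls at 48 h and 1 rise and 2 falls at 96 h.

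**Figure D4:**
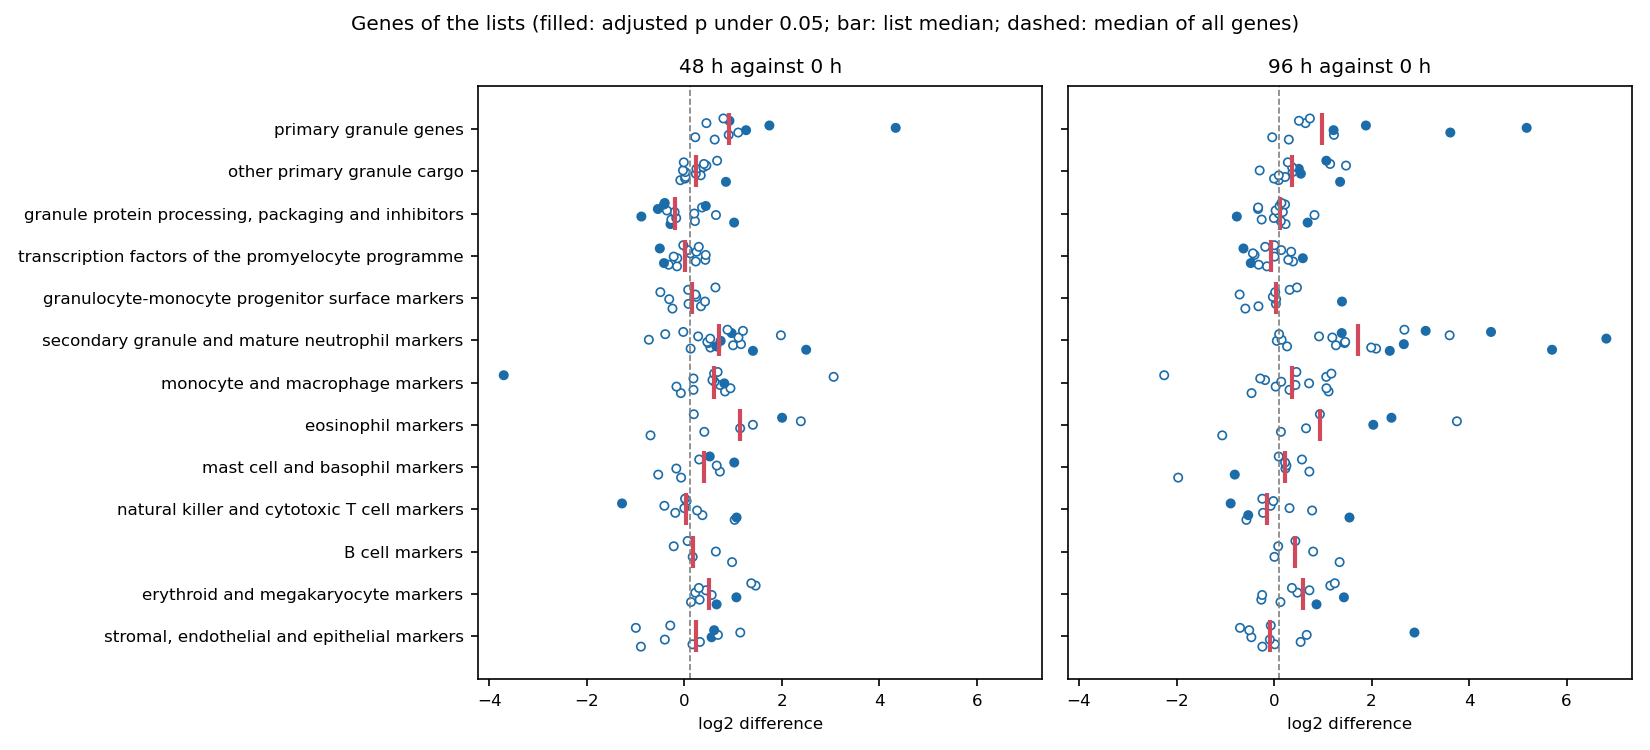
Log2 difference (horizontal axis) at 48 h (left) and 96 h (right) against 0 h for the genes tested in each list (rows); filled points have a limma adjusted p under 0.05, red bars are list medians and the dashed line is the median of all genes. The primary granule row has its median at 0.92 and 0.98 and the neutrophil row at 0.70 and 1.73, with all genes at 0.12 and 0.11.

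Genes next to the 10 on the chromosome, the 3 nearest on each side in the RefSeq order, were read for comparison. Of 54 neighbours 26 were tested, and 4 were called higher and 0 lower at both 48 h and 96 h, beside 10.5% and 6.18% of all genes called higher. With the block 9 and 7 were called higher, beside 12.2% and 8.56%. Prtn3 and Elane are themselves neighbours, and Cfd, the serine protease complement factor D of the same cluster, gave 0.60 (limma adjusted p = 0.268, with the block 0.0377) and 1.17 (adjusted p = 0.0855, with the block 0.0098). Near Mpo, the eosinophil peroxidase gene Epx was called higher at 96 h than at 0 h (limma adjusted p = 0.039), by an untested bound at least 1.42-fold. Epx was well above background on 0 of 4 arrays at 0 h, 1 of 4 at 48 h and 3 of 3 at 96 h, and so was tested only through arrays after 4-OHT. The lactoperoxidase gene Lpo beside it gave 0.14 and 0.21 (adjusted p = 0.563 and 0.457). Tspoap1, on the other side of Mpo, rose at both times (0.80, adjusted p = 0.00629, and 1.01, adjusted p = 0.00817), as did Cldnd2 beside Nkg7 (0.58, adjusted p = 0.0161, and 0.60, adjusted p = 0.0311). Mcpt8, near Ctsg, and Med16, near Elane, were called at 48 h alone (1.02, adjusted p = 0.0175, and 0.41, adjusted p = 0.0435), and Acss1, near Cst7, at 96 h alone (0.64, adjusted p = 0.0303).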

How the data were processed

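RNA of 11 samples was hybridised to 1-colour (Cy3) Agilent arrays of a design built on mm9, per the file headers. The intensity used is the deposited processed signal, background-subtracted and detrended by Feature Extraction 11.0.1.1, per the file headers, and not normalized between arrays. The authors' deposited log2 values (limma, per the submitters' processing notes) were an alternative. They matched normexp (offset 50) with quantile normalization of the scanner values at r of at least 0.99998, with column medians of 6.17 to 6.19. The normexp alternative took the median pixel intensity, the mean being absent from the deposited files.

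Control and outlier-flagged spots (125 to 194 per array) were left out, and 0 non-control spots were saturated. Of 55681 probes, 27656 matched a single symbol among RefSeq genes of GRCm38.p6, 0 several and 28025 none. Kept were probes whose signal was well above background on 3 or more of 11 arrays (34269), and a gene's probe with the highest mean stood for it. limma 3.58.1 in R 4.3.3 (lmFit, eBayes, 2-sided, 8 residual degrees of freedom), with files read by the data.table package, version 1.17.8, was tested on simulated data, and figures used Python 3.11.15 with matplotlib 3.10.9. The number of arrays limits the precision.

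Deviations from group means correlated over 0.1 in 10 of 10 same-file-number pairs (0.107 to 0.328) but not in title-number pairs that disagree with them (-0.036 to 0.0043). Among pairs sharing neither number, 1 of 12 between 0 h and 48 h was also over 0.1 (0.158), so the ranges overlap. In each comparison with 96 h it was 0 of 7 such pairs. The file-name number was therefore the block, and that it stands for the 4 lines is not stated. The members and the 12 marker and pathway lists (160 entries) were chosen with earlier results of these data known. Besides all members, the text names up to 4 called genes of largest change per list, transcription factors, absent defining markers, called chromosomal neighbours and genes among the 8 most like the members. Some items that this rule covers are not reported here. Ctsc, Cfd, Lpo, Lyz1, Lyz2, Cd3d, Lck, Lepr and other genes outside that rule were named after their values were seen. Alternatives covered scaling, background correction, the dim-probe filter, the probe rule, blocks, array weights, slide row and leaving out each array.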

Additional observations from a re-analysis of the deposited data

How the results depend on the processing

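Of 777 recomputed values of the 10 genes, 681 kept their direction and side of the threshold, 34 reversed, 21 lost a call and 41 gained one, and the cause of the changes was not tested. The replicate block by file-name number raised the number of called genes from 4 to 8 at 48 h and from 4 to 8 at 96 h, as did numbers 1, 3 and 4 with that block (8 and 8, and 2 at 96 h against 48 h, 1 higher and 1 lower). Over all genes that last setting called 2768, 2251 and 1232 higher in the 3 comparisons. Leaving out single arrays gave 3 to 7 of the 10 genes at 48 h (7 without 0 h replicate 2) and 2 to 6 at 96 h. With only the 2 groups compared the 96 h count was 2, with fewer arrays in the fit. At 96 h against 48 h it was 0 with normexp, in the deposited table and with the filter on all arrays, which removes Fcnb. Each reversal was of a difference that had not passed the test. Under median scaling, Cst7 at 96 h gave -0.081, Ctsg at 48 h -0.00085 and Ms4a3 between 48 h and 96 h -0.020 (title-number block -0.076, single arrays left out -0.0010 to 0.25). With normexp, the deposited table and quantile normalization in turn, Ctsg gave -0.016, -0.016 and -0.034 at 48 h, 0.36, 0.35 and 0.29 at 96 h (single arrays left out -0.097 to 0.054), and 0.37, 0.37 and 0.32 between 48 h and 96 h. Between those times normexp and the deposited table gave 0.056 and 0.056 for Igsf6, 0.065 and 0.065 for Plac8, and 0.051 and 0.053 for Prtn3. The block gave 0.093 for Igsf6 and 0.12 for Prtn3 there, numbers 1, 3 and 4 (with and without the block) 0.063 and 0.025, slide row 0.0060 for Prtn3, and single arrays left out -0.16 to 0.063 and -0.29 to 0.056. Calls over all genes ranged more widely: without the dim-probe filter they fell from 4657 to 2652 at 48 h, from 2397 to 910 at 96 h and from 2789 to 1367 between them, under median scaling to 2355 at 48 h and 920 between 48 h and 96 h, with only the 2 groups to 435 at 96 h, and with the title-number block to 1484 and 1600 for the comparisons with 96 h. Signal over background limits Fcnb, tested in the main fit only through its 96 h arrays, and Epx among the neighbours.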
